A study of Homo sapiens with 12 samples.

Results

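In a ΔLEO1 clone of BJ-5ta fibroblasts, the mean RNA level of 101 protein-coding genes was 1/16 of the wild-type mean or less. They are called silent here, although some kept readily counted RNA. LEO1 is a subunit of PAF1C, a complex that travels with RNA polymerase II during elongation. BJ-5ta is an established skin fibroblast line that telomerase keeps dividing. The genes were chosen by CPM, a gene's count divided by the total gene count of its library and multiplied by 1e6. A gene was taken when its mean over the 6 wild-type libraries was 2 CPM or more and its mean over the 6 ΔLEO1 libraries was 1/16 of that or less. LEO1 itself was left out. Of 11079 protein-coding genes that reached 2 CPM in wild-type cells, 0.912% met the rule, and the whole count table held 60671 genes.

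Poly(A) RNA was sequenced from unedited BJ-5ta cells (WT) and from ΔLEO1 cells in which CRISPR/Cas9 was aimed at the first exons of LEO1. Both were grown in medium with 10% serum or kept for 10 days in 0.1% serum, with 3 libraries for each of the 4 groups. All ΔLEO1 libraries came from clone 13, so the loss of LEO1 and any other feature of that clone cannot be told apart. Nothing in the labels says that the 3 libraries of a group were separate cultures, so p-values measure the spread between these libraries only, which may be technical.

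The libraries held 26240632 to 45315560 gene counts. LEO1 was at 20.4 to 30.4 CPM in the WT libraries and at 0.661 to 1.44 CPM in the ΔLEO1 libraries. The mean levels of the other PAF1C genes in ΔLEO1 were 0.984 times the WT mean for PAF1 to 1.35 times for CTR9. The 10 fibroblast markers summed to between 72771 and 106516 CPM in every library, although single markers differed. COL6A1 had means of 5457 CPM in WT and 2243 CPM in ΔLEO1, and DCN of 3709 and 2069 CPM. COL3A1, FN1 and VIM had higher means in ΔLEO1. Markers of other cell types differed between the genotypes. The summed level of 6 epithelial markers ran from 165 to 462 CPM in WT and from 509 to 1141 CPM in ΔLEO1, mainly KRT18. KRT8 went the other way, with means of 66.1 CPM in WT and 29.4 CPM in ΔLEO1. The summed level of the 4 smooth muscle markers ran from 137 to 897 CPM in WT and from 575 to 2819 CPM in ΔLEO1. It was mainly ACTA2, a gene that fibroblasts express too. The 5 endothelial markers were at 2.01 to 5.52 CPM in WT, mainly TEK, which is itself a silent gene. In ΔLEO1 they were at 0.400 to 0.644 CPM, mainly VWF. The 5 leukocyte markers were at 2.01 to 2.96 CPM in WT and 3.15 to 9.01 CPM in ΔLEO1. Among them PTPRC had means of 0.367 and 5.49 CPM, while CD68 went the other way (1.08 and 0.704 CPM). The 4 neural markers were at 7.36 to 14.8 CPM in WT and 17.998 to 38.0 CPM in ΔLEO1. SOX10 was at 0 in all libraries, and EPCAM, KRT19, KRT5, CDH5, KDR, CD3E and LYZ stayed below 0.5 CPM. Their part in the results was not tested. WT library 3 stood apart from libraries 1 and 2 in several of the genes below, and values without it are given for some of them. Without it CXCL1, IL6, SLC25A4, TMEM130 and VLDLR did not meet the rule. Each of SLC25A4, TMEM130 and VLDLR was also lost without another library.

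A fibroblast makes and shapes the extracellular matrix and signals to its neighbours through secreted factors and surface receptors. Many of these genes are used by only some fibroblasts, depending on where in the body the cells come from. When serum is withdrawn, fibroblasts leave the cell cycle and enter quiescence, a resting state that can be reversed and in which a different set of matrix and signalling genes is used.

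The values that chose the genes are a description and were not tested. Their WT mean ran from 2.07 to 322 CPM with a median of 6.37 CPM. There were 34 genes under 5 CPM, 28 from 5 to under 10, 30 from 10 to under 30 and 9 above that. Per kilobase of exon the median WT level was 1.37 CPM, against 5.59 CPM over the 11079 genes. The median ΔLEO1 mean was 0.146 CPM. Summed over the 101 genes, the level was 1415 to 1879 CPM in the WT libraries and 40.6 to 67.9 CPM in the ΔLEO1 libraries, of which EFEMP1 alone made up 31.9%. For 96 genes the lowest of the 6 WT libraries was above the highest of the 6 ΔLEO1 libraries, and 10.3% of the 11079 genes had that pattern. Within 10% serum 98 genes did not overlap (30.3% of the 11079), and within 0.1% serum 100 (21.8%). These shares are part of what the rule chose. In bulk RNA, fewer cells with a transcript and less of it per cell cannot be told apart.

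**Figure D1:**
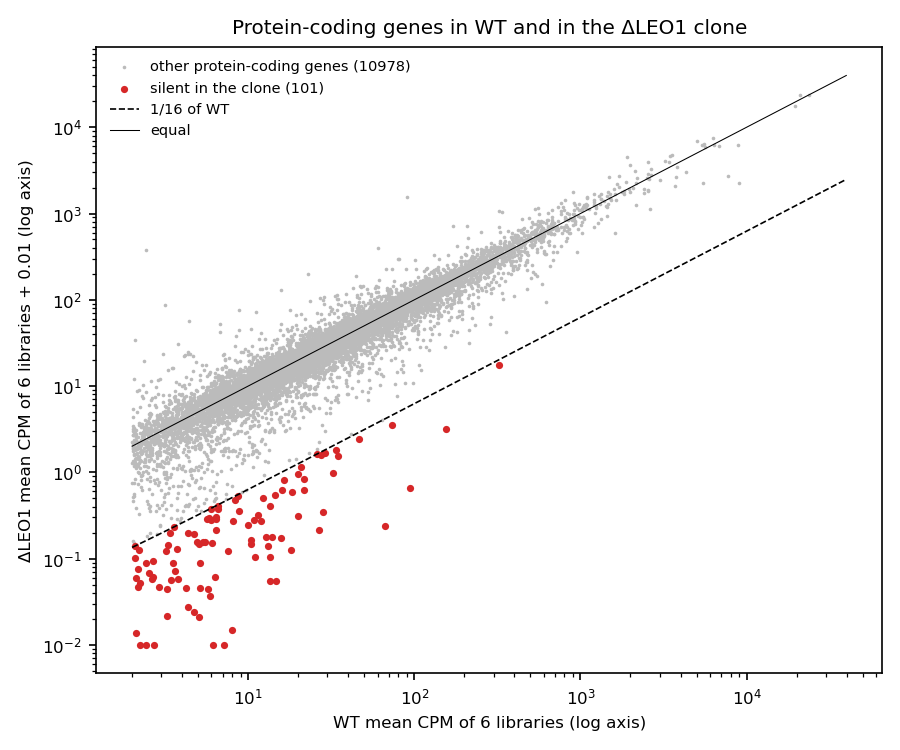
Mean CPM of 6 WT libraries (horizontal, log axis) against mean CPM of 6 ΔLEO1 libraries with 0.01 added (vertical, log axis), 1 point per protein-coding gene with a WT mean of 2 CPM or more. The 101 genes in red lie below the dashed line at 1/16 by construction, and 5 of them sit at the bottom edge with 0 counts in ΔLEO1.

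No transcript was counted in any of the 6 ΔLEO1 libraries for 5 genes. The sequence before the start is printed for 4 of them, because no residual RNA was seen. They are GALM, which interconverts the anomers of galactose, CDO1, the enzyme that oxidizes cysteine to its sulfinate, PNPLA4, a lipase of the patatin family, and CABCOCO1, a protein of cilia. The fifth was OPLAH, the 5-oxoprolinase of the glutathione cycle. The 250 bases before the start annotated in RefSeq (GRCh38.p14) are given in the direction of transcription, with each CG dinucleotide in capitals. CG is the site of DNA methylation in human cells, which was not measured here. CFI is added as the contrast, because it had the fewest CG of the 54 silent genes with exactly 1 promoter in the table.
GALM (chr2:38665864-38666113, plus strand): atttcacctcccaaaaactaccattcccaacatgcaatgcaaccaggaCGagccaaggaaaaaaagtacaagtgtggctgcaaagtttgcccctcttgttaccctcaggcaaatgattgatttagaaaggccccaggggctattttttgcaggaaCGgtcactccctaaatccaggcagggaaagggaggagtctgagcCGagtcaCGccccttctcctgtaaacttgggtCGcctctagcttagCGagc
CDO1 (chr5:115816660-115816909, minus strand): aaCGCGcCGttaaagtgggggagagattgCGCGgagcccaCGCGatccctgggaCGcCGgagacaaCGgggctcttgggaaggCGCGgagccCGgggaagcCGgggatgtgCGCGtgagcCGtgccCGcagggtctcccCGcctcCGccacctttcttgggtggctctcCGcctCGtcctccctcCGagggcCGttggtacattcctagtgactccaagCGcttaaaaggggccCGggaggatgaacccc
PNPLA4 (chrX:7927725-7927974, minus strand): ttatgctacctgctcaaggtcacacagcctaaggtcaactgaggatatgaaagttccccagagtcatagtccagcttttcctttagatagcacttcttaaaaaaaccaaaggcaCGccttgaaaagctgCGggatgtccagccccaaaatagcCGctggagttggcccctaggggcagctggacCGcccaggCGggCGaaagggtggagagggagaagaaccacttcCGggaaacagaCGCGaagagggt
CABCOCO1 (chr10:61662679-61662928, plus strand): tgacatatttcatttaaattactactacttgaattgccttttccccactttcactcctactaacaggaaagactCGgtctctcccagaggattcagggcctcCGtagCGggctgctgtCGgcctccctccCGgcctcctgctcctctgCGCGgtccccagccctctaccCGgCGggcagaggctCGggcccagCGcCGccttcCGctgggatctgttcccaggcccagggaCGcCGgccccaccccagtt
CFI (chr4:109802000-109802249, minus strand): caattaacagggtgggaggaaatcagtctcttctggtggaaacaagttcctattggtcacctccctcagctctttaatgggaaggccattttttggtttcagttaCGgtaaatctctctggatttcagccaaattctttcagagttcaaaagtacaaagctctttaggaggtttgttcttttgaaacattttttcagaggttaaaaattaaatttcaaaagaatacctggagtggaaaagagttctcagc
Among the printed genes without a count, CG ranged from 6 for GALM to 26 for CDO1, while CFI was chosen for its low number. CDO1 had 26 CG, a number that 19.6% of the 35116 promoters in the table reached or exceeded. CABCOCO1 had 15 (42.9%), PNPLA4 had 9 (54.1%), GALM had 6 (61.9%) and CFI had 1 (93.9%), while the median promoter had 11. Over all silent genes the check of promoter composition is void, since the table held a promoter for 77 of the 101 genes (76.2%). A count of CG is a description of these letters and says nothing of methylation.

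In WT cells GALM was at 6.61, 7.78 and 5.30 CPM in 10% serum and at 5.61, 6.29 and 11.5 CPM in 0.1% serum. Against 3 counts in each ΔLEO1 library, a mean of 0.0791 CPM, GALM was at least 90.8-fold higher in WT. By the same floor OPLAH was at least 78.0-fold, PNPLA4 at least 34.1-fold, CDO1 at least 30.8-fold and CABCOCO1 at least 28.2-fold higher. These floors cover counting error only. A few more genes left 1 to 3 counts in all 6 ΔLEO1 libraries together. They were CXCL1 and SLC25A4 with 1 count, and BEX1, SLC40A1 and PFKFB2 with 3. SLC40A1 encodes ferroportin, the iron exporter of the cell, and its 6 WT libraries lay between 3.77 and 6.63 CPM. In all, 22 genes had 10 counts or fewer over the 6 libraries, 66 had 60 or fewer, and 12 had 10 or more in every ΔLEO1 library.

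At the other end, residual RNA was readily counted. EFEMP1 (chr2:55865967-55924139, minus strand) encodes fibulin-3, a glycoprotein of the matrix, and had the highest WT level per kilobase of exon, 81.3 CPM. It was at 468, 462 and 352 CPM in the WT libraries in 10% serum and at 185, 222 and 243 CPM in 0.1% serum. The ΔLEO1 libraries were at 16.99, 15.5 and 14.4 CPM and at 21.7, 22.7 and 13.1 CPM, which gives an 18.5-fold difference of the means, close to the limit of the rule. Just inside the limit lay TMEM130 (16.04-fold), ENTPD1 (16.2-fold) and ADAMTS8 (16.2-fold). Outside it lay ADAM22 (15.8-fold) and DTX4 (15.5-fold).

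**Figure D2:**
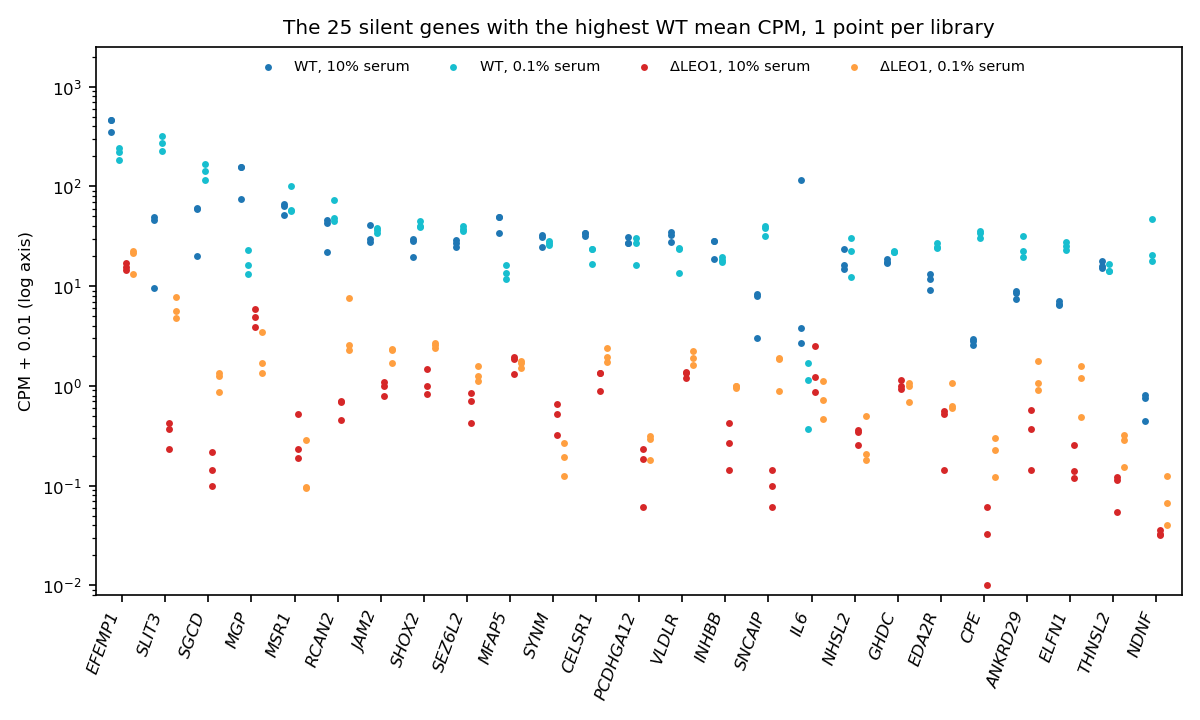
CPM with 0.01 added (log axis) of the 25 silent genes with the highest WT mean, 1 point per library, with 3 libraries for each of the 4 groups. EFEMP1 lies highest in both genotypes, a single WT library of IL6 stands at 115 CPM while the other 5 are at 3.80 CPM or lower, and SLIT3, SNCAIP and CPE were higher in 0.1% serum in WT.

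By function the 101 genes were spread widely. A role written by hand put 20 among enzymes, 18 among receptors and adhesion proteins, 12 in intracellular signalling, 11 among secreted signals and proteases, 11 among channels and transporters, 9 in the cytoskeleton, 8 among transcription factors and 6 in the matrix, with 6 others. Gene families were then counted by symbol among all genes with a WT mean of 2 CPM or more. These symbol lists are not complete, and they leave out silent genes such as MFAP5 (matrix), CELSR1 (a cadherin), INHBB and EFNB3 (secreted and guidance ligands) and the receptors TEK, LTK, EDA2R and VLDLR. Of 87 listed matrix genes 5 were silent (ADAMTS8, ADAMTSL1, COL21A1, EFEMP1 and MGP), of 47 ion channels 4 (CACNA1A, KCNS3, SCN2A and SCN3A), and of 36 developmental transcription factors 2 (SHOX2 and SIX2). None of 15 HOX genes, 5 T-box genes and 8 imprinted genes was silent by this rule, and lists this short do not allow an absence to be read. The imprinted gene MEST met the rule in 10% serum alone (76.6 CPM in WT and 3.45 CPM in ΔLEO1). In 0.1% serum it was at 80.2 and 11.7 CPM. Zinc finger genes, the largest family, had 2 of 411 (ZNF667 and ZNF880). Solute carriers and ABC transporters had 5 of 224, cadherins 1 of 30 (PCDHGA12), growth factors and guidance ligands 1 of 42 (SLIT3), chemokines 1 of 5 (CXCL1), and complement and HLA genes 1 of 10 (CFI). A list of 72 receptors, kinases and genes whose symbols start with IL held 1, the cytokine IL6. The share over all protein-coding genes was 0.912%, and no family was tested.

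Among the matrix genes, MGP, the matrix Gla protein that inhibits calcification, was at 157, 157 and 74.1 CPM in WT in 10% serum and at 5.90, 4.88 and 3.87 CPM in ΔLEO1. In 0.1% serum it was at 16.3, 23.1 and 13.3 CPM in WT and at 1.32, 1.69 and 3.46 CPM in ΔLEO1. The genotypes did not overlap at either serum level, although the WT level itself was much lower in 0.1% serum. MFAP5, a glycoprotein of the microfibrils, had a WT mean of 29.02 CPM and a ΔLEO1 mean of 1.68 CPM.

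Among the secreted signals, SLIT3 (chr5:168661733-169301129, minus strand), a ligand of ROBO receptors, was at 49.7, 46.2 and 9.54 CPM in WT in 10% serum and at 273, 224 and 322 CPM in 0.1% serum. In ΔLEO1 it was at 0.361, 0.419 and 0.225 CPM and at 5.66, 4.76 and 7.79 CPM. The genotypes did not overlap, and both were higher in 0.1% serum. INHBB, the beta B subunit of activins and inhibins, had means of 21.8 CPM in WT and 0.622 CPM in ΔLEO1. NDNF, a secreted factor first described in neurons, had a WT mean of 14.6 CPM and 10 counts in all 6 ΔLEO1 libraries. IL6 and CXCL1 entered through a single library. CXCL1 was at 0.466, 0.842 and 43.97 CPM in WT in 10% serum, and IL6 at 2.66, 3.80 and 115 CPM. Without WT library 3 neither met the rule.

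Of the surface proteins, MSR1, a scavenger receptor known from macrophages, was at 65.97, 63.7 and 52.3 CPM in WT in 10% serum and at 57.2, 58.5 and 100.4 CPM in 0.1% serum. The ΔLEO1 libraries lay between 0.0850 and 0.508 CPM. JAM2, a junctional adhesion molecule, SEZ6L2 and CELSR1, a cadherin of planar cell polarity, had WT means of 34.5, 32.3 and 27.3 CPM and ΔLEO1 means of 1.53, 0.975 and 1.60 CPM. VLDLR, a receptor of lipoproteins and reelin, had means of 26.01 and 1.61 CPM, and EDA2R, a receptor of the TNF receptor family, of 18.4 and 0.579 CPM. ELFN1, a synaptic membrane protein, had means of 16.1 and 0.619 CPM. TEK, the angiopoietin receptor and also 1 of the 5 endothelial markers, was at 2.64 CPM in WT and at 0.0477 CPM in ΔLEO1.

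Of the cytoskeletal and signalling genes, SGCD, the delta-sarcoglycan of the dystrophin complex, was at 59.00, 60.2 and 20.02 CPM in WT in 10% serum and at 166, 141 and 117 CPM in 0.1% serum. In ΔLEO1 it was at 0.206, 0.0883 and 0.135 CPM and at 1.35, 0.861 and 1.25 CPM, a 145-fold difference of the means. SYNM, an intermediate filament protein, had means of 28.3 CPM in WT and 0.339 CPM in ΔLEO1, and NHSL2 of 20.02 and 0.300 CPM. RCAN2, a regulator of calcineurin, had means of 46.3 and 2.40 CPM.

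Among the transcription factors SHOX2, a homeodomain protein of limb and heart development, had a WT mean of 33.7 CPM and a ΔLEO1 mean of 1.82 CPM. FOXE1, the forkhead factor of thyroid development, had means of 13.6 and 0.0949 CPM, SIX2, a homeodomain factor of the kidney progenitors, of 13.5 and 0.395 CPM, and PPARG, the nuclear receptor of fat cells, of 5.62 and 0.276 CPM. Of the enzymes, CPE, carboxypeptidase E, which trims prohormones, was at 2.58, 2.96 and 2.81 CPM in WT in 10% serum and at 30.6, 35.8 and 34.3 CPM in 0.1% serum. It had 24 counts in the 6 ΔLEO1 libraries together. THNSL2 had means of 15.7 and 0.165 CPM. Of the genes with other roles, GHDC had means of 19.9 and 0.959 CPM and ANKRD29 of 16.4 and 0.795 CPM.

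Some of these counts may be shared between genes. Of the stretches of 58 bases in the transcripts of a gene, 69.3% were shared with other genes for PGA5, 49.0% for PCDHGA12 and 30.2% for CFI, while 68 genes shared none. PCDHGA12 lies in the gamma protocadherin cluster, whose genes share their last exons. Its mean was 26.5 CPM in WT and 0.203 CPM in ΔLEO1, whereas PCDHGB4 was at 61.5 and 57.7 CPM and PCDHGB5 at 1.31 and 30.03 CPM. On the opposite strand 15 of the silent genes were overlapped by an expressed gene, and the strand setting of the counting is not given in the sources used here.

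The silent genes lay on all autosomes and on chromosome X. Chromosome 2 held 12 (1.58% of its expressed protein-coding genes), chromosome 5 held 9 (1.73%), and chromosomes 4, 7 and 9 held 7 each. Within 500000 bases of each other lay only QPRT and SEZ6L2 on chromosome 16, and SCN3A, SCN2A and GALNT3 on chromosome 2. QPRT (chr16:29679008-29698699) and SEZ6L2 (chr16:29871159-29899547) were 172459 bases apart. Between them KIF22 was at 23.1 CPM in WT and 29.7 CPM in ΔLEO1, and CDIPT at 81.3 and 76.6 CPM, so the low level did not extend over the whole interval. SCN3A (chr2:165087522-165204067) and SCN2A (chr2:165194993-165392310), which encode sodium channels, overlap on opposite strands. GALNT3 (chr2:165747591-165794682) lies 355280 bases further on. CSRNP3, between SCN2A and GALNT3, was at 7.87 CPM in WT and 1.09 CPM in ΔLEO1. On the outer sides SLC38A11, beside SCN3A, was at 194 and 74.5 CPM, and TTC21B, beside GALNT3, at 26.3 and 21.9 CPM. On chromosome X, HEPH, beside EDA2R, was at 3.43 and 0.283 CPM.

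Most silent genes stood alone. The nearest expressed protein-coding genes on both sides that were not silent themselves numbered 202, with a median distance of 80024.5 bases. Their median log2 ratio of ΔLEO1 to WT was -0.07, and 168 lay within 1 log2 unit of equal. For 72 of the 101 genes both flanking genes did. Among the flanking genes 14.4% were at 1/2 of WT or less, against 7.07% of the 11079 genes, and 2.48% were at 2 times WT or more, against 1.89%. These shares were not tested. Neighbouring silent genes can share a flanking gene, which is then counted for each.

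**Figure D3:**
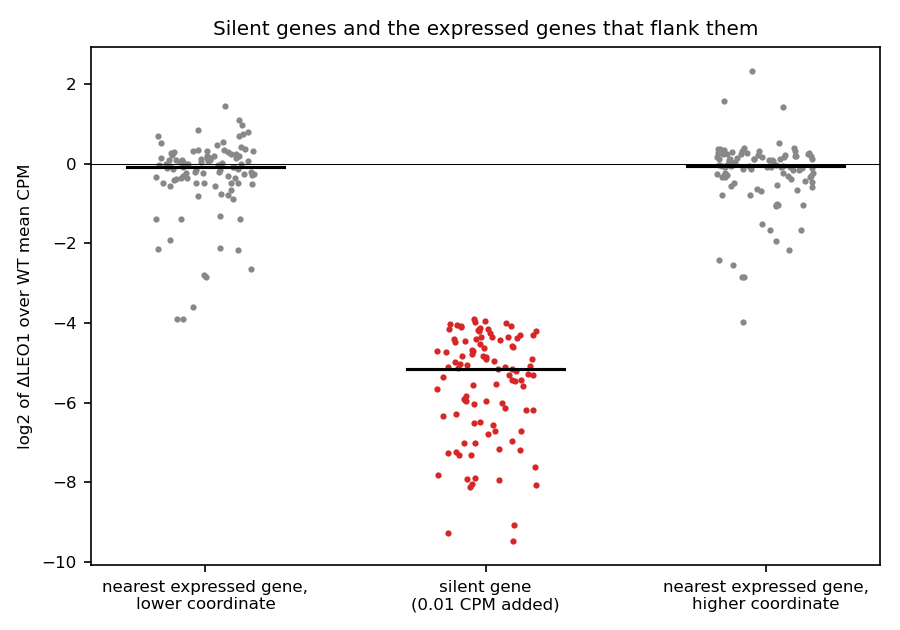
The log2 ratio of ΔLEO1 to WT mean CPM for the 101 silent genes (centre, with 0.01 CPM added) and for the nearest expressed gene on each side, 1 point per gene, with the median as a black line. The flanking genes centre on 0 with a tail below -2, whereas the silent genes lie at or below about -4 by the rule.

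For 5 silent genes an expressed gene starts on the other strand within 1000 bases. RSRC1, whose start is 648 bases from that of SHOX2, was at 28.4 CPM in WT and 18.3 CPM in ΔLEO1. STT3A, beside FEZ1, was at 207 and 190 CPM, and ZNF598, 103 bases from NPW, at 47.4 and 58.4 CPM. The other two neighbours were low in ΔLEO1 as well. ASPHD1, beside SEZ6L2, was at 3.27 and 0.561 CPM, and ZNF667-AS1, a long noncoding RNA beside ZNF667, at 3.80 and 0.0461 CPM. Of 627 noncoding and other genes with a WT mean of 2 CPM or more, 5 also met the ratio, among them ZNF667-AS1 and HAGLR of the HOXD cluster (2.69 and 0.0333 CPM).

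To see whether the low level recurs in the same clone at the other serum level, the rule was applied to the 6 libraries in 10% serum alone. The genes were then read in 0.1% serum. The rule in 10% serum took 113 genes, 82 of them among the 101. In 0.1% serum 112 could be tested, and 107 were called lower in ΔLEO1 than in WT (edgeR quasi-likelihood test, Benjamini-Hochberg adjusted p under 0.05 on the scale of the ERCC spike-in transcripts). Over all 13236 tested genes 3.41% were called lower. The median log2 fold change was -4.20, and in 0.1% serum 69 of the 113 genes had a ΔLEO1 mean of 1/16 of WT or less and 106 one of 1/4 or less. The 5 that were not called were IL6, CXCL8, COL4A4, CLSTN2 and LRRC15. LRRC15, a leucine-rich repeat membrane protein, was at 17.4 CPM in WT and 0.626 CPM in ΔLEO1 in 10% serum, but at 32.9 and 15.6 CPM in 0.1% serum. IL6 was at 1.05 and 0.760 CPM there. All ΔLEO1 libraries are the same clone at both serum levels, so the reading in 0.1% serum is not independent of that clone. The 3.41% of all tested genes includes the chosen genes. Most of the chosen genes passed the filter through their WT level, so the number called cannot be read against that share.

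The response of the silent genes to serum was then measured in WT cells. It is not independent of the rule, because the WT mean over both serum levels set the floor of 2 CPM, and a gene could pass through the serum level where it is high. At both serum levels 80 of the 101 genes had a WT mean of 2 CPM or more. CXCL1 did not pass the filter of more than 1 CPM in 3 libraries, and 100 genes were tested. In 0.1% against 10% serum 11 were called higher, against 0.831% of all tested genes, and 22 lower, against 27.0%. Of the 11, 8 had a WT mean under 2 CPM in 10% serum (SCARA5, PGA5, ADAMTS8, SLC7A14, ENTPD1, NDNF, COL21A1 and GAP43) and entered through 0.1% serum, and 3 did not (CPE, SLIT3 and SNCAIP). Of the 22, 4 had a WT mean under 2 CPM in 0.1% serum (IL6, BEX1, HHIPL1 and SLC25A4) and entered through 10% serum. The counts are therefore a description, and nothing is read from them against the shares over all genes. On the ERCC scale, which follows RNA relative to the added spike-in, the median of all tested genes was -0.97 (log2) and that of the silent genes was -0.83. When libraries were scaled on the genes themselves by TMM, the median of all tested genes was 0.0045 and that of the silent genes 0.19. On that scale 33 silent genes were called higher (15.5% of all) and 12 lower (16.1%), of which 11 and 3 entered through the serum level where they are high. The 11 genes called higher on the ERCC scale were all called higher by TMM too, and 12 of the 22 called lower were called lower. By CPM, every library in 0.1% serum was above every library in 10% serum for 41 silent genes (31.2% of the 11079) and below for 14 (19.6%).

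**Figure D4:**
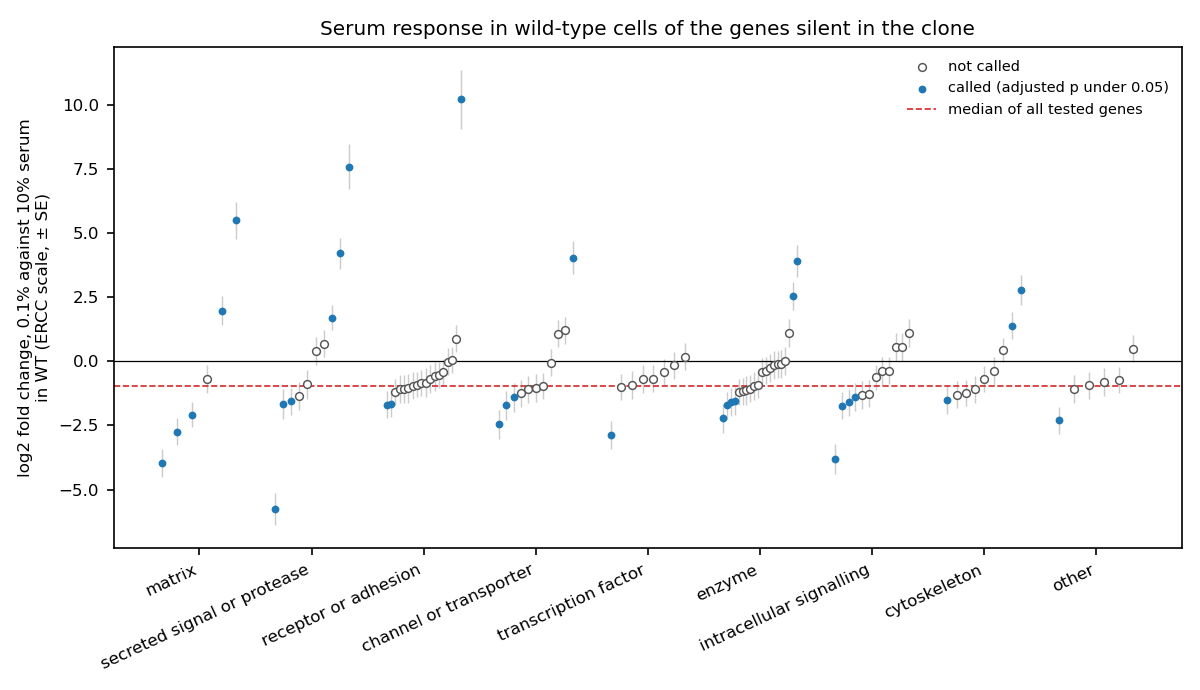
Log2 fold change in 0.1% against 10% serum in WT (ERCC scale, bars show the SE of the fit, 3 libraries per group) for the 100 tested silent genes by role, with called genes filled. The dashed line is the median of all tested genes at -0.97. The highest point, SCARA5, had 0 counts in 10% serum, so its fitted value depends on the prior count.

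Several of the genes that rose were almost off in 10% serum. SCARA5, a scavenger receptor that takes up ferritin, had 0 counts in the 3 WT libraries in 10% serum and 7.63, 7.05 and 1.28 CPM in 0.1% serum. Against 3 counts in each library in 10% serum it was at least 67.9-fold higher by CPM and at least 35.0-fold higher on the ERCC scale. PGA5, a pepsinogen with near-identical copies, had 2 counts in 10% serum and 716 in 0.1% serum, a ratio by CPM of 440 with a 95% exact interval from 121 to 3643 that covers counting error only. These genes and the next 3 were chosen through their level in 0.1% serum, so their values are given with no test.

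ADAMTS8, a secreted protease of the matrix, was at 0.110, 0.0510 and 0.0765 CPM in 10% serum and at 8.73, 8.31 and 4.27 CPM in 0.1% serum (log2 5.50 ± 0.73 SE). NDNF was at 0.795, 0.740 and 0.434 CPM and at 20.6, 17.7 and 47.5 CPM (log2 4.22 ± 0.61 SE). SLC7A14, a lysosomal member of the amino acid transporters, was at 0.356, 0.281 and 0.255 CPM and at 12.8, 8.57 and 9.85 CPM (log2 4.04 ± 0.63 SE). In each of these 3 genes the serum levels did not overlap.

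The other genes called higher were ENTPD1, an ectonucleotidase (log2 3.91), GAP43, a growth cone protein (2.77), CPE (2.55), COL21A1, a fibril-associated collagen (1.98), SLIT3 (1.70) and SNCAIP, which binds alpha-synuclein (1.38). Of these ENTPD1, GAP43 and COL21A1 were chosen through 0.1% serum too. By TMM these values were 4.74, 3.69, 3.50, 3.10, 2.88 and 2.44. The call for SNCAIP on the ERCC scale was lost without WT library 1, 2, 3, 7, 8 or 9 and without ΔLEO1 library 5 or 10, with edgeR quasi-likelihood adjusted p up to 0.135. That for SLIT3 was lost without WT library 3 (log2 1.20, edgeR adjusted p = 0.0571). SLIT3 and SNCAIP both had their lowest level in WT library 3.

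Of the genes called lower, MGP changed by -3.97 ± 0.54 SE on the log2 scale (edgeR quasi-likelihood adjusted p = 5.74e-11) and by -2.97 by TMM. BEX1, a small adaptor protein of the brain, was at 6.44, 6.61 and 13.6 CPM in 10% serum and at 0.891, 1.52 and 1.16 CPM in 0.1% serum (log2 -3.81 ± 0.60 SE, no test, since it was chosen through 10% serum). FOXE1 was at 16.7, 17.02 and 30.6 CPM and at 4.96, 5.68 and 6.60 CPM (log2 -2.88 ± 0.55 SE, edgeR quasi-likelihood adjusted p = 1.19e-05). The serum levels of these genes did not overlap. MFAP5 was at 49.1, 49.2 and 34.3 CPM and at 13.5, 16.2 and 11.7 CPM, a log2 fold change of -2.75. IL6 had the lowest fitted value, -5.74, which rested on the library at 115 CPM, and without that library it was -2.76. Of the 22 calls 10, among them SCN2A, SCN3A and MARK1, were not made by TMM, where their values were -0.55, -0.26 and -0.41.

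Both directions occurred within most roles. Over all tested genes 0.831% were called higher and 27.0% lower on the ERCC scale, and 15.5% and 16.1% by TMM. Of the genes named here, ADAMTS8, COL21A1, NDNF, PGA5, ENTPD1 and GAP43 were chosen through 0.1% serum. IL6, HHIPL1 and BEX1 were chosen through 10% serum. The counts by role are therefore a description, and nothing is read from them against these shares. Of the 6 matrix genes 2 rose (ADAMTS8 and COL21A1) and 3 fell (EFEMP1, MGP and MFAP5), on both scales. Of the 10 tested secreted signals and proteases 3 rose (SLIT3, NDNF and PGA5) and 3 fell (IL6, INHBB and HHIPL1), of which INHBB and HHIPL1 were not called by TMM. Of the 20 enzymes 2 rose (CPE and ENTPD1) and 4 fell, of the 11 channels and transporters 1 rose and 3 fell, and of the 9 cytoskeletal genes 2 rose (GAP43 and SNCAIP) and 1 fell. Among the 8 transcription factors FOXE1 fell on both scales, and 3 were called higher by TMM. In intracellular signalling 4 of 12 fell (BEX1, DAPK1, DCLK1 and MARK1), of which BEX1 was called by TMM.

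The number called lower depended on single libraries. It was 9 without WT library 1, 2 or 7, 11 without WT library 9, 37 without WT library 3, 40 without ΔLEO1 library 11 and 49 without ΔLEO1 library 12. The calls over all 13236 tested genes moved alike, with 902, 1171, 745 and 986 called lower without WT library 1, 2, 7 and 9, 6168 without WT library 3, and 7243 and 8107 without ΔLEO1 library 11 and 12. The number called higher ran from 9 to 16 over all 12 libraries left out in turn.

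The little RNA that remained in ΔLEO1 was also compared between the serum levels. On the ERCC scale 7 of the silent genes were called higher in 0.1% serum in ΔLEO1, against 0.793% of all tested genes, and 15 lower, against 36.4%. Only 11 of the silent genes exceeded 1 CPM in 3 or more ΔLEO1 libraries, and 5 had no count, so most were tested through their WT level and the counts of calls cannot be read against those shares. By TMM there were 27 higher (15.5% of all) and 2 lower (12.1%). On both scales 6 genes were higher (SLIT3, SNCAIP, ADAMTS8, SGCD, RCAN2 and CACHD1), and MGP and SYNM were lower. The raw counts of SLIT3 were 14, 19 and 10 in 10% serum and 197, 155 and 275 in 0.1% serum. SNCAIP had 2, 6 and 4 counts and then 65, 62 and 31, SGCD had 8, 4 and 6 and then 47, 28 and 44, and ADAMTS8 had 2, 0 and 0 and then 15, 11 and 18. SYNM went the other way, from 20, 14 and 29 counts to 4, 6 and 9. The serum levels did not overlap in any of these 5 genes. Among all silent genes the ΔLEO1 libraries in 0.1% serum were all above those in 10% serum by CPM for 35 (26.6% of the 11079) and all below for 5 (16.4%), and nothing is read from these counts either, since 45 of the genes had 30 counts or fewer over the 6 libraries.

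Of the 11 genes called higher in WT on the ERCC scale, ADAMTS8, SCARA5, SLIT3 and SNCAIP were called higher in ΔLEO1 too. Of the 22 called lower 6 were (BEX1, FOXE1, IL6, MFAP5, MGP and PFKFB2). Over the 6 ΔLEO1 libraries BEX1 and PFKFB2 had 3 counts each, SCARA5 17 and FOXE1 23, so these calls rest on few counts. Most silent genes passed the filter through their WT level, so nothing is read from the overlap. No gene was called in opposite directions on the ERCC scale, whereas by TMM CELSR1 and GASK1B were lower in WT and higher in ΔLEO1. The difference itself was tested as the interaction of genotype and serum. On the ERCC scale 1 silent gene, IL6, was called with the higher response in ΔLEO1, against 0.113% of all tested genes, while 0.0604% of all were called with the lower response. By TMM 7 were called higher (1.55% of all) and 1 lower (0.453%). These counts cannot be read against those shares either, since most silent genes passed the filter through their WT level. The total of calls in ΔLEO1 on the ERCC scale was 22, beside 37.2% of all tested genes, and depended on single libraries. It was 14 without WT library 2 or 7, 11 without ΔLEO1 library 4, 9 without library 5, 6 without library 10, 13 without library 11 and 39 without library 12. Over all tested genes the number called lower in ΔLEO1 moved with it, from 405 without library 10 to 11565 without library 12.

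**Figure D5:**
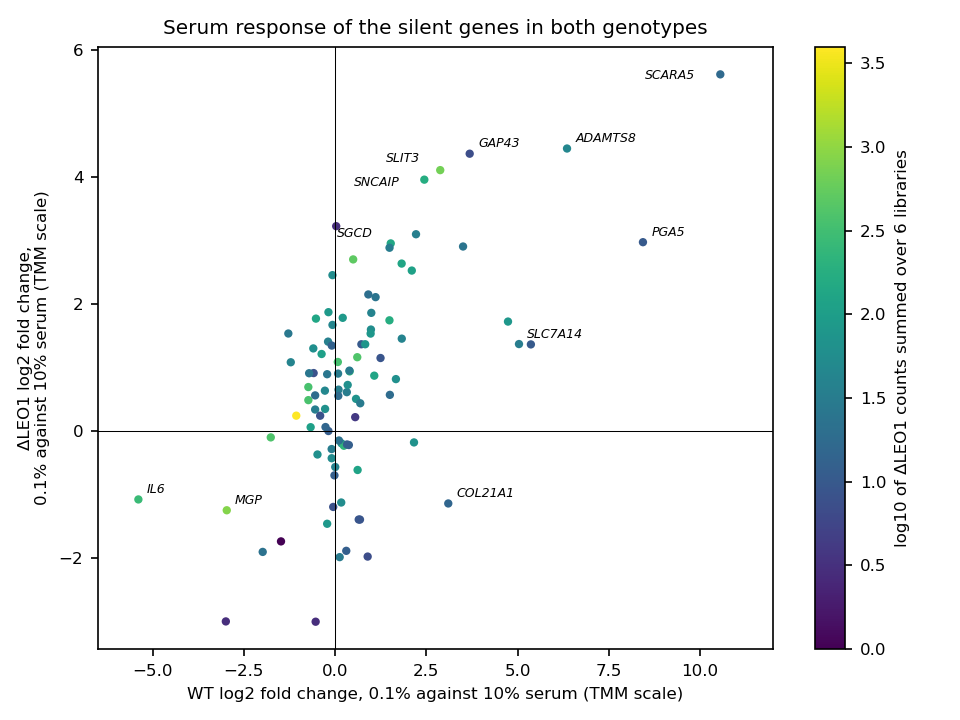
Log2 fold change in 0.1% against 10% serum in WT (horizontal) and in ΔLEO1 (vertical) on the TMM scale for the 95 tested silent genes with at least 1 count in ΔLEO1, coloured by the log10 of those counts. On this scale 18 genes, among them SLIT3, SNCAIP, ADAMTS8 and SLC7A14, were called higher in both genotypes and MGP lower in both, and dark points rest on few counts.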

How the data were processed

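RNA-seq of 12 libraries was analysed. The deposited tables hold raw counts per gene and per ERCC spike-in transcript, as whole numbers. Per the labels and the study's methods, the authors demultiplexed with bcl2fastq 2.20.0.422, aligned with STAR (2.7.10a in the labels, with another release in the methods) to GRCh38 with the spike-in sequences added, and counted with featureCounts 1.5.1. The annotation release and strand setting are not given in the sources used here, although the library kit was stranded. The tables held 0 columns of other samples.

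Groups came from the sample titles. Biotypes and positions came from GENCODE 29 (58453 of 60671 genes found), symbols from a gene name table (60401 listed). Serum comparisons used edgeR 4.0.16 in R 4.3.3, with glmQLFit and glmQLFTest, two-sided, on all 12 libraries in one fit with 4 groups. The effective library size was the ERCC total times the TMM factor of the ERCC transcripts. A gene entered if at least 3 libraries exceeded 1 CPM (13236 genes), and Benjamini-Hochberg adjusted p under 0.05 was called. The study does not name the test within edgeR. The choice between genotypes used CPM and was not tested over the chosen genes. Alternatives were the likelihood ratio test, DESeq2 1.42.0, TMM and DESeq2 size factors on the genes, no filter, libraries left out, and other thresholds of the rule. The fit with both TMM and left-out libraries, and the interaction term, were added after the data were seen. The fits were tested on simulated data. ChIP-seq was not analysed here.

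The genes, family lists and roles were chosen with earlier results of these data known, and list patterns were narrowed where their letters took in unrelated genes. Named genes were the 25 highest in WT, the 5 largest serum changes in each direction, 3 on each side of the limit, pairs within 500000 bases and list members. Of those outside the limit, 1 is not reported here. Others named were chosen after their values were seen. Promoters came from RefSeq. Depth limits low levels: 1 count was 0.0221 to 0.0381 CPM.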

Additional observations from a re-analysis of the deposited data

Results flagged for a closer look

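The interaction of genotype and serum was called for IL6. On the ERCC scale the log2 fold change in 0.1% against 10% serum was 3.38 higher in ΔLEO1 than in WT (edgeR quasi-likelihood adjusted p = 0.0115), and 0.113% of all tested genes were called higher in this test. By TMM the difference was 4.32 with an edgeR adjusted p of 0.345. IL6 entered the silent genes through WT library 3, where it was at 115 CPM. The same value enters this test, so the call is not read as a difference between the genotypes. Without that library the difference was 0.40 (edgeR adjusted p = 1.0). The call was also lost without ΔLEO1 library 4, 6 or 10 and without WT library 7 or 9, with differences from 2.89 to 3.36. By TMM another set of silent genes was called, with 7 higher (CELSR1, EFEMP1, GASK1B, INHBB, MFAP5, NUDT11 and STEAP2) and 1 lower (SLC7A14). Their counts over the 6 ΔLEO1 libraries ran from 28 for GASK1B to 3959 for EFEMP1.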

How the results depend on the processing

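The number of silent genes moved with the limits of the rule. It was 159 at a ratio of 1/8, 60 at 1/32 and 67 with a WT floor of 5 CPM, and lay between 96 and 110 with each library left out. With CPM replaced by ERCC-scaled counts it was 94. The 81 genes that met the rule in each of the 12 sets without 1 library exclude IL6, CXCL1, VLDLR, ADAMTS8 and ENTPD1 among others. In WT, the number called lower in 0.1% serum was 12 by TMM, 12 with DESeq2 size factors, 9 to 49 with a library left out and 52 without the highest-numbered library of each group. The number called higher was 33 by TMM, 34 with DESeq2 size factors, 9 to 16 with a library left out and 39 without the highest-numbered libraries by TMM. In ΔLEO1 the number called was 14 without the filter, 6 to 39 with a library left out, 41 without the highest-numbered libraries and 41 without them by TMM. The calls over all tested genes moved too: in WT 8347 of 13236 were called lower without the highest-numbered libraries, and 745 to 8107 with a library left out. The cause was not tested. The number of genes from 10% serum called lower in 0.1% serum ran from 98 to 108 with a library left out. For the 33 genes called in WT, 527 values under alternatives stayed called, 99 were no longer called and 0 changed sign. The IL6 interaction was -0.50 without the highest-numbered libraries. No paired analysis was possible because no replicate number is shared between groups.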

Other observations

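The reverse pattern was rarer. By the same rule with the genotypes exchanged, 37 protein-coding genes had a ΔLEO1 mean of 2 CPM or more and a WT mean of 1/16 of that or less. Within 10% serum 93 of the 101 silent genes kept a ratio of 1/16 or less, and within 0.1% serum 86 did.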
